A study of Rattus norvegicus with 14 samples.

Results

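The metallothionein genes Mt1a, Mt2A, Mt3 and Mt4 and Mtf1, the gene of their metal-sensing transcription factor, were followed in colonocytes of 14 male Wistar rats. The 5 genes were taken by name from the 26276 gene names on the array, and they were read by 6 of its 30367 probes, since Mt2A has a second probe. They were selected on their HPD and NPD values in these same rats, so their differences between the diets are given below as a description. Calls on them are not read as a test. The study asked how the colonic epithelium responds to a high-protein diet, and 7 rats received a normal-protein diet (NPD, 14% of energy from protein) while 7 received an isocaloric high-protein diet (HPD, 55% of energy from protein) for 15 days. Milk protein replaced starch and sucrose in the HPD, and both diets carried the same mineral and vitamin mixtures. The metal content of the milk protein and of the whole diets was not given. In both groups the epithelial cells were detached from the colon with a buffer containing EDTA, a chelator of metal ions, and each rat gave 1 one-colour array. Each array therefore averaged the colonocytes of 1 rat, and fewer cells of a type cannot be told apart from less RNA per cell.

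Metallothioneins are small cytosolic proteins whose many cysteines bind zinc, copper and cadmium, and they buffer the free zinc of the cell. The transcription factor encoded by Mtf1 binds zinc through its zinc fingers and then occupies metal response elements, short sequences in the promoters of metallothionein genes and of the zinc exporter gene Slc30a1. Mt1a and Mt2A are made in most tissues, the intestine included, whereas Mt3 is known from the brain and Mt4 from stratified squamous epithelia. Glucocorticoids and inflammatory signals also raise Mt1a and Mt2A transcription.

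The 4 metallothionein genes lie side by side on the minus strand of chromosome 19, within 39.9 kb of the rat assembly GRCr8 by RefSeq annotation. Mt1a (symbol Mt1 in RefSeq, 10831959 to 10832975) is separated by 4.96 kb from Mt2A (10837934 to 10838708), which is followed after 16 kb by Mt3 (10854676 to 10856080) and after a further 13.7 kb by Mt4 (10869735 to 10871831). Mtf1 lies apart, on chromosome 5 (142347024 to 142391810). The core of the metal response element was searched as TGCACNC and TGCGCNC on both strands in the 250 bases before the start of each of 33469 RefSeq promoters, with all 5 genes among them. At least 1 match was found in 20.6% of them. Mt1a had 6 matches, a number reached by 9 promoters (0.0269%). Mt2A had 4, reached by 0.266% of promoters, Mt3 had 3 (1.17%), Mtf1 had 2 (4.90%) and Mt4 had 1 (20.6%). The window of Mtf1 ends 30 bases inside the annotated gene, because the start in the promoter table lies that far downstream. A match is a description of the letters and not of a bound site. The 250 bases before the start of the 4 metallothionein genes are shown because Mtf1 protein acts on metallothionein promoters through such elements. They come from RefSeq (GRCr8, minus strand), are written 5′ to 3′ in the direction of the gene, and carry the matches in capitals, those on the opposite strand in their reverse complement. They cover chr19:10832976-10833225 for Mt1a, chr19:10838709-10838958 for Mt2A, chr19:10856081-10856330 for Mt3 and chr19:10871832-10872081 for Mt4.
Mt1a: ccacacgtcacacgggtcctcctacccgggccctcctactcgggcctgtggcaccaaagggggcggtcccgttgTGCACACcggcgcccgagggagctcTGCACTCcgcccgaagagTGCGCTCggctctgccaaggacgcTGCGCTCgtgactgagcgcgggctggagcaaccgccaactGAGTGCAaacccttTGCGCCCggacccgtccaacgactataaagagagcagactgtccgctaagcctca
Mt2A: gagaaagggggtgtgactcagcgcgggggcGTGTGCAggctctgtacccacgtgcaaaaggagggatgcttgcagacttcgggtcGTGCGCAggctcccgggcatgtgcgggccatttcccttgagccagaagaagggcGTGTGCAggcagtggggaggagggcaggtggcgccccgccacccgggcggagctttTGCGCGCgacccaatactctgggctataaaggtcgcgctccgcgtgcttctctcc
Mt3: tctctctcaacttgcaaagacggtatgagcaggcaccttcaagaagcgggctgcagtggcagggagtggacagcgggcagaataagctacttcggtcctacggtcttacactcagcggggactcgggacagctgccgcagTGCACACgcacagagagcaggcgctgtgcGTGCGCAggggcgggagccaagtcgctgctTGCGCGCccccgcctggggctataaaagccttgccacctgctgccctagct
Mt4: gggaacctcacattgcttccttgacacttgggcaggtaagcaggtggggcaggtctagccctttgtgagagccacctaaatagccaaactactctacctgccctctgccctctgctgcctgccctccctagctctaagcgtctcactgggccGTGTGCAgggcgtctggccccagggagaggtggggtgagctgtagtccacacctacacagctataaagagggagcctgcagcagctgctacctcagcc

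**Figure D1:**
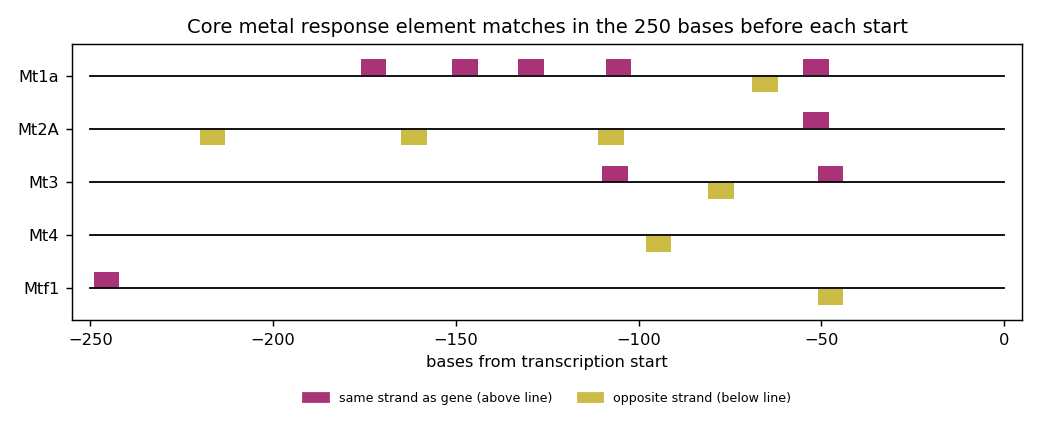
Position of each match to the metal response element core in the 250 bases before the transcription start of the 5 genes (x axis, bases from the start), drawn above the line for the strand of the gene and below it for the opposite strand. Mt1a held 6 matches, Mt2A 4, Mt3 3, Mtf1 2 and Mt4 1, and in Mt1a and Mt2A the match nearest to the start lay between 55 and 49 bases before it.

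The probes read different parts of the transcripts. By the annotation of the array (build rn4), the probe of Mt1a covers chr19:11261631-11261690, the first probe of Mt2A chr19:11267834-11267893 and its second probe chr19:11268168-11268227, each 60 bases long. The second probe lies in the coding sequence. Its sequence is shown because its cysteine codons, in capitals (TGC or TGT, in the reading frame that holds most of them and no stop), are the defining feature of the family. Of its 20 codons 7 were cysteine codons. A pair of probes whose signals ran closest to those of Mt1a and Mt2A over the arrays carried the same feature, although neither bears a metallothionein name. The probe named FQ220235 (chr19:11262012-11262071) lies 321 bases from the Mt1a probe and has 5 cysteine codons of 20, and the probe named ENSRNOT00000058957 (chrX:55288646-55288705) has 6 of 20. Whether the FQ220235 probe lies within the Mt1a gene, and whether all 20 of its codons are coding, was not examined.
Mt2A, second probe: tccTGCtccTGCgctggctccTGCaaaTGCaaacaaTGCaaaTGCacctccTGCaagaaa
FQ220235: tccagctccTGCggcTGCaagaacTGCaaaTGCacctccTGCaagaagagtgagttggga
ENSRNOT00000058957: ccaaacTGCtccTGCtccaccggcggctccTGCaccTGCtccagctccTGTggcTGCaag

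The longest stretch that any pair of the 6 member probes shared was 9 bases, between Mt1a and Mt3. The second Mt2A probe and FQ220235 had 23 bases in common, and ENSRNOT00000058957 shared 10 with the second Mt2A probe and 11 with FQ220235. These are unbroken identical stretches, so probes that differ at single bases are more alike than the lengths show. The end of ENSRNOT00000058957 and the start of FQ220235, as printed above, are such a case. Signal from near-identical metallothionein transcripts on these 3 cysteine-rich probes cannot be told apart, and Mt2A is therefore described first by its other probe, which has no stretch over 6 bases in common with either unnamed probe.

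All 6 member probes were well above background on 14 of 14 arrays, by the scanner software's own test against the local background, and none of their spots was saturated. Across all arrays, 17008 probes passed this test on all 14, correlations between arrays ran from 0.970 to 0.992, and the median signal ranged from 114 to 179 on the NPD arrays and from 89.7 to 129.5 on the HPD arrays. Values below are log2 signals relative to the median of their own array, which takes out this shift of the median. The arrays lay on 2 slides, each scanned on its own, with 4 NPD and 3 HPD arrays on slide 1 and 3 NPD and 4 HPD arrays on slide 2. All 5 absorptive colonocyte markers on the array (Car1, Slc26a3, Aqp8, Krt20 and Guca2a) were well above background on 14 arrays, with a mean level from 7.69 to 8.31 in NPD and from 7.99 to 8.70 in HPD rats. All 5 had a higher mean in HPD rats, and 5 of 6 goblet cell markers a lower one (mean level 9.05 to 9.92 in NPD and 8.69 to 10.52 in HPD rats). The median difference over all probes was 0.11, and Car1, at 0.06, lay below it. Car1 was -0.10 with normexp background correction and -0.03 in the deposited values blocked by slide. Krt20 was 0.004 and 0.02 there, and Slc26a3, Aqp8 and Guca2a stayed higher. The mean level of 6 immune markers ran from -1.25 to 1.52 and from -1.19 to 0.03, and that of 6 stromal and muscle markers from 0.23 to 0.66 and from 0.14 to 0.62. No marker was called between the diets (limma, q-value below 0.1), at an unadjusted p under 0.05 for 1 of 5 absorptive, 2 of 6 goblet, 1 of 6 immune, 3 of 6 stromal, 1 of 5 stem and cycling, 0 of 4 enteroendocrine and 1 of 3 red blood cell markers (11.4% of all probes), and their part in the metallothionein values was not tested. Of 35 markers, 6 were called with normexp, where 16.9% of all probes were. These were Agr2, Clca1, Top2a and Lyz2 as lower and Col3a1 and Col1a1 as higher. Agr2, Top2a and Lyz2 were also called in the deposited values blocked by slide, where 10.5% of all probes were. These counts are near the shares over all probes, so nothing is read from them about the markers. Without HPD replicate 1, 1 marker was called.

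Mt2A and Mt1a stood higher in every HPD rat than in every NPD rat, and Mt4 in all but 1. Mt2A, which encodes one of the main zinc-storing metallothioneins, read from 6.88 to 8.57 in the NPD rats (median 7.95) and from 9.77 to 11.36 in the HPD rats (median 10.58). The lowest HPD rat lay 1.19 above the highest NPD rat. The means were 7.79 ± 0.57 (SD, n = 7) and 10.55 ± 0.52 (SD, n = 7), a difference of 2.76 with a standard error of 0.27, or a fold of 6.76 in signal. The second probe of Mt2A read from 6.64 to 8.57 in NPD (median 7.82) and from 9.77 to 10.68 in HPD rats (median 9.85), a difference of 2.28 (standard error 0.26) with a gap of 1.20. Its lowest HPD rat, like that of the first probe, lay above all 7 NPD rats.

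Mt1a, the other widely expressed metallothionein, read from 9.38 to 10.86 in NPD (median 10.21) and from 11.25 to 12.33 in HPD rats (median 11.91). The diets were separated by 0.39, the distance from NPD replicate 7 to HPD replicate 1. The means were 10.15 ± 0.52 (SD, n = 7) and 11.83 ± 0.37 (SD, n = 7), a difference of 1.68 (standard error 0.23) and a fold of 3.21.

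Mt4, the metallothionein known from squamous epithelia, read from 2.82 to 3.8 in NPD (median 3.15) and from 3.69 to 4.94 in HPD rats (median 4.30). HPD replicate 2 lay below NPD replicate 5 by 0.12, and the other 6 HPD rats lay above all NPD rats. The means were 3.20 ± 0.32 (SD, n = 7) and 4.29 ± 0.39 (SD, n = 7), a difference of 1.09 (standard error 0.19) and a fold of 2.13. Within each slide the diets did not overlap, with gaps of 0.27 on slide 1 and 0.28 on slide 2.

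Mt3, the metallothionein known from neurons, was close to the array median, from -0.45 to 1.53 in NPD (median 0.56) and from 0.97 to 2.04 in HPD rats (median 1.14). The groups overlapped, and the means of 0.41 ± 0.69 (SD, n = 7) and 1.25 ± 0.36 (SD, n = 7) differed by 0.84 (standard error 0.27), and by 0.50 with normexp background correction. The overlap came from NPD replicate 6, the 1 array on which the 2 spots of the probe disagreed, with signals of 90.4 and 400.8, a ratio of 4.43. On the other 13 arrays the spots agreed within a ratio of 1.19. With only the dimmer spot on that array, a setting chosen after the values were seen, that rat read 0.45, the highest NPD rat read 0.78, all 7 HPD rats lay above it and the difference was 0.99.

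Mtf1, the sensor gene, read from 0.26 to 0.78 in NPD (median 0.53) and from 0.02 to 0.65 in HPD rats (median 0.46). The groups overlapped over most of their range, and the means of 0.50 ± 0.17 (SD, n = 7) and 0.44 ± 0.20 (SD, n = 7) differed by -0.06 (standard error 0.12). At this error the interval of 2 standard errors on each side ran from a fold of 0.815 to one of 1.13. The difference was -0.10 on slide 1 and 0.04 on slide 2, and 0.01 without HPD replicate 7.

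**Figure D2:**
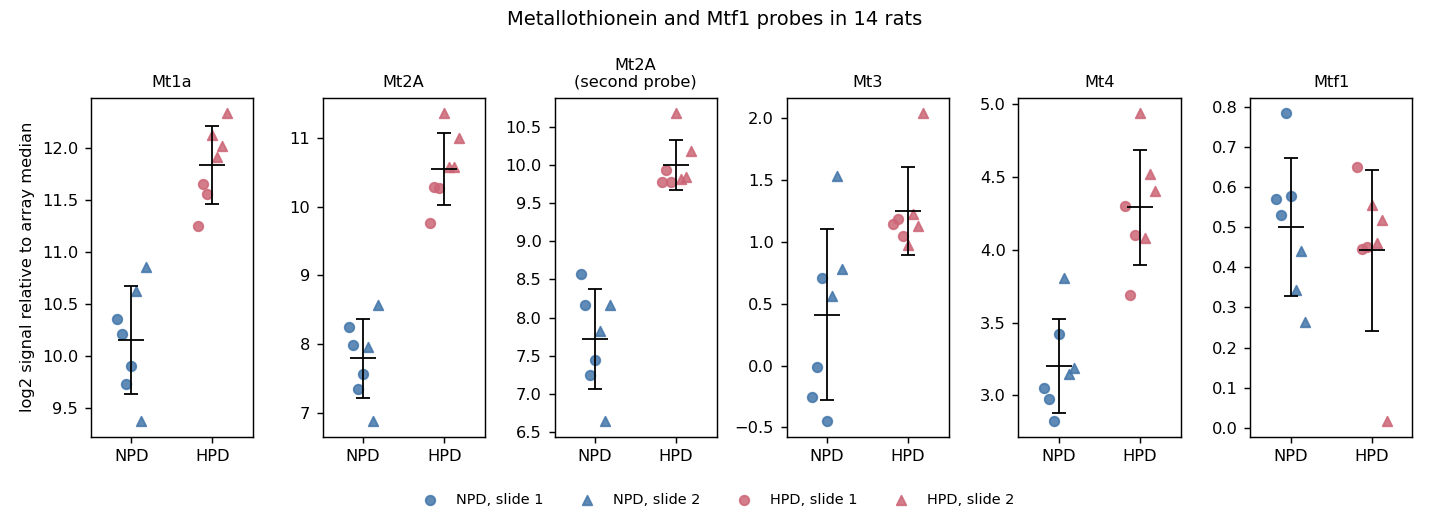
Log2 signal relative to the array median (y axis, 1 scale per panel) of the 6 probes in each rat, by diet and slide, with the mean and SD of 7 rats in black. The HPD rats lie above all NPD rats for Mt1a and both Mt2A probes, with 1 HPD rat inside the NPD range for Mt4, and the diets overlap for Mt3 and Mtf1.

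By limma at a q-value below 0.1, 4 of the 6 member probes were called, both of Mt2A and those of Mt1a and Mt4, and in 3 of 6 the diets did not overlap. Over all probes 0.056% were called in this contrast, all of them higher (0.056%), and 0.274% of the probes with a value on every array did not overlap (0.129% with HPD higher). Since this contrast chose the members, nothing is read from these shares. The member calls in other settings rest on the same contrast and only describe the processing. Mt1a and both Mt2A probes were called in every setting that holds them, Mt4 in 14 of 26 and Mt3 in 2 of 26, and in 11 of the 14 fits with 1 array left out 3 member probes were called, since Mt4 was not. FQ220235 and ENSRNOT00000058957 are further probes of the 17 called. FQ220235 read from 7.19 to 8.89 in NPD and from 9.99 to 10.93 in HPD rats, a difference of 2.10 (standard error 0.24), and ENSRNOT00000058957 read from 7.32 to 9.10 and from 10.20 to 10.89, a difference of 2.02 (standard error 0.23).

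The 5 metallothionein probes were higher in HPD rats on each slide. For Mt2A the difference was 2.32 on slide 1 (7.79 ± 0.41 in 4 NPD and 10.11 ± 0.30 in 3 HPD rats, SD) and 3.08 on slide 2 (7.80 ± 0.86 in 3 NPD and 10.88 ± 0.37 in 4 HPD rats, SD). For Mt1a the differences were 1.44 and 1.81, for the second Mt2A probe 1.97 and 2.59, for Mt4 0.96 and 1.11, and for Mt3 1.13 and 0.38. Mt2A had the largest and Mt1a the third largest difference on both slides, while Mt3 and Mt4 changed places. With slide as a block the differences were 2.70 for Mt2A, 2.28 for its second probe, 1.62 for Mt1a, 1.03 for Mt4, 0.75 for Mt3 and -0.03 for Mtf1. The effect of slide itself, which did not enter the choice of the genes, was tested in the fit of diet and slide. Slide 2 read higher than slide 1 for Mt3 by 0.59 (limma adjusted p = 0.0748) and for Mt4 by 0.38 (limma adjusted p = 0.0885), and these 2 of 6 probes were called where 40.1% of all probes were. For Mt3, slide 2 holds NPD replicate 6, whose value rests on 2 spots that disagreed. Neither the slide effect of Mt3 nor its difference on slide 2 was computed with the dimmer spot only. Mt1a (0.42, limma adjusted p = 0.135), Mt2A (0.39, limma adjusted p = 0.273) and Mtf1 (-0.20, limma adjusted p = 0.150) did not pass, nor did the second Mt2A probe (-0.01, limma adjusted p = 0.990).

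**Figure D3:**
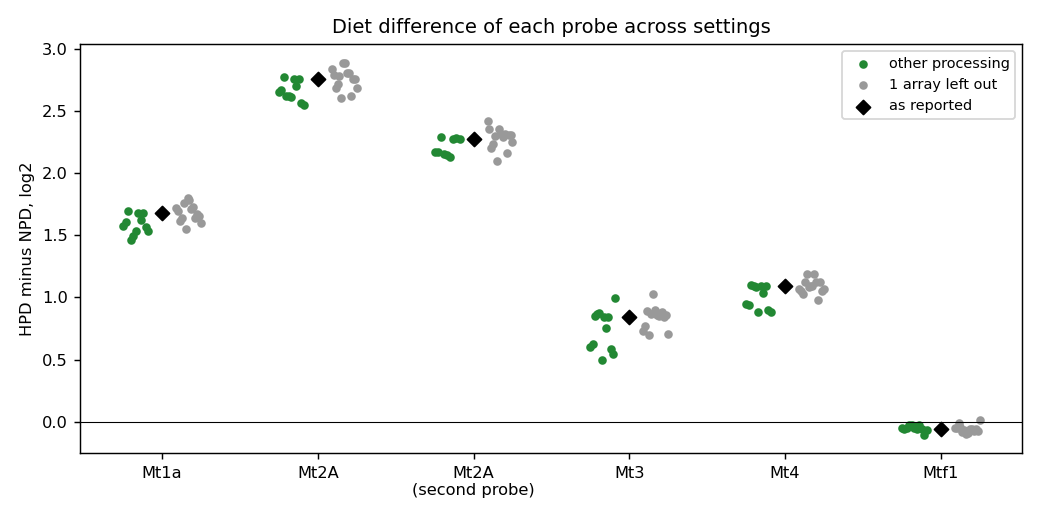
HPD minus NPD difference (y axis, log2) of each probe as reported (black), with other signal columns, normalizations, blocks or the deposited table (green) and with 1 array left out in turn (grey). Mt2A stayed between 2.55 and 2.89, Mt1a between 1.46 and 1.80, Mt4 between 0.88 and 1.19 and Mt3 between 0.50 and 1.03, while Mtf1 ran from -0.11 to 0.01.

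Rats on the same diet differed more in the 4 metallothioneins than in the median probe. The SD within a diet was 0.55 for Mt2A, 0.45 for Mt1a, 0.55 for Mt3 and 0.36 for Mt4, against a median of 0.29 over the 17008 probes that were well above background on all arrays. Mt2A was more variable than 91.5% of these probes, Mt1a than 84.1%, Mt3 than 91.6% and Mt4 than 69.0%. Mtf1 read steadier, with an SD of 0.19, above that of 15.6% of probes. Values of Mtf1 and Mt2A average 10 spots an array, those of Mt1a, Mt3 and Mt4 2 spots. Averaging more spots lowers the spot noise, so these percentiles do not compare rats at equal precision. The spread between spots of 1 array was small beside the SD within a diet for Mt2A, with a median SD of 0.028 over 10 spots, and for Mt1a (0.062 over 2 spots). For Mtf1 it was 0.114 over 10 spots. For Mt3 it was 0.059 over 2 spots, but 1.52 on the array of NPD replicate 6, and with only the dimmer spot there the SD of Mt3 within a diet was 0.43, above that of 81.5% of probes.

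Mt1a and Mt2A varied together from rat to rat. Within the NPD group, Pearson's r between them was 0.95 (exact permutation p = 0.00218, adjusted p = 0.0698) and Spearman's rho 0.89 (exact permutation p = 0.0123, adjusted p = 0.197). Within the HPD group r was 0.91 (exact permutation p = 0.00595, adjusted p = 0.0952) and rho 0.93 (exact permutation p = 0.00675, adjusted p = 0.197). The p-values were two-sided and adjusted over 32 relations, and the rank form did not pass 0.1. NPD replicate 6 was the lowest and NPD replicate 7 the highest NPD rat for both genes. Without the 2 rats farthest from the Mt1a median, 5 rats were left, and r was 0.82 in NPD (exact permutation p = 0.10) and 0.84 in HPD rats (exact permutation p = 0.05). After each diet-and-slide mean was subtracted, r over the 14 rats was 0.92 (exact permutation within the diet-and-slide groups, p = 0.000868, adjusted over 16 pairs p = 0.0139). For comparison, both probes of the Mt2A transcript gave an r of 0.94 in this form (exact permutation p = 0.000193).

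**Figure D4:**
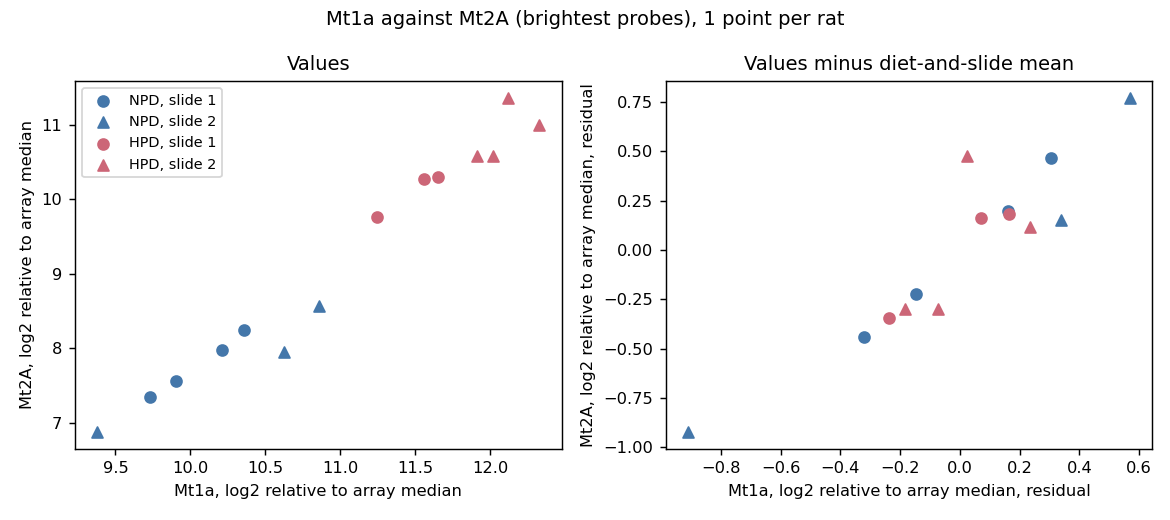
Mt1a (x axis) against Mt2A (y axis), both as log2 signal relative to the array median, 1 point per rat, as measured (left) and after subtracting the mean of each diet and slide (right). The HPD rats lie above and to the right of the NPD rats, and on the right, where r was 0.92, the NPD rats of slide 2 (triangles) span the widest range.

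Of the other relations, 1 passed the test. No other relation of the 32 had an adjusted p below 0.365. Mt4 gave an r of 0.37 with Mt1a in NPD and 0.49 in HPD rats, and of 0.13 and 0.63 with Mt2A. Mt3 and Mtf1 gave -0.93 in HPD rats (exact permutation p = 0.0443, adjusted p = 0.365), which rests on HPD replicate 7, the rat with the highest Mt3 and the lowest Mtf1. Its array had the lowest median signal, 89.7. Without it and the next farthest rat r was -0.05. The 1 that passed was that of Mtf1 with Mt1a, which ran in opposite directions after subtracting diet-and-slide means (r = -0.54, exact permutation p = 0.00304, adjusted p = 0.0243), while within the diets r was -0.60 in NPD (exact permutation p = 0.153, adjusted p = 0.389) and -0.64 in HPD rats (exact permutation p = 0.109, adjusted p = 0.379). In HPD rats the sign turned, to 0.88, without the 2 rats farthest from the Mt1a median (-0.90 in NPD rats), and with quantile normalization the 14-rat value was -0.29 (exact permutation p = 0.165, adjusted p = 0.377).

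Over all 14 arrays, the genes most like Mt1a and Mt2A were each other and the cysteine-rich probes. Whether FQ220235 reads Mt1a itself was not examined. With Mt1a, r was 0.98 for Mt2A, 0.98 for FQ220235 and 0.96 for ENSRNOT00000058957, among 12887 gene names with a probe well above background on every array. With Mt2A, r was 0.99 for FQ220235 and 0.98 for ENSRNOT00000058957, followed by Shisa5 (0.94) and Rapgef5 (0.92), and with Mt1a by Olr1414 (0.90) and Etfdh (0.89). After diet-and-slide means were subtracted the same 3 names led each list, at 0.95, 0.92 and 0.92 for Mt1a and 0.96, 0.95 and 0.92 for Mt2A. The next were Lpar1 (0.88) and Hes2 (0.88) for Mt1a and ENSRNOT00000040274 (0.87) and ENSRNOT00000030924 (0.85) for Mt2A. Mtf1 was most like Arntl2 (0.87), Btnl1 (0.85), Adipor2 (0.83), Cd14 (0.83) and Cd9 (0.82), and within diet and slide like Atp12a (0.85), Stk36 (0.84), Adipor2 (0.83), Arntl2 (0.81) and Bambi (0.80). The r over all 14 arrays also carry the diet difference on which the members were chosen. All these r are a description over 14 arrays that share their scaling and slides.

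Genes that handle the same metals, and genes of the stress, glucocorticoid and IL-6 responses, were compared from 7 lists of 74 measured genes. Of these limma called 0 at a q-value below 0.1, with 8 at an unadjusted p under 0.05, where 11.4% of all probes had such a p. With normexp background correction 7 of them were called, where 16.9% of all probes were. Their median difference was 0.02 beside 0.11 over all probes. Of 23 zinc transporter genes, 14 were higher and 9 lower in HPD rats, with 4 at an unadjusted p under 0.05 (11.4% of all probes). Their median difference was 0.07, below the 0.11 of all probes, and the balance of signs depended on the processing. Slc39a8, Slc39a13, Slc39a6, Slc39a1, Slc39a3, Slc30a6 and Slc30a5, all slightly higher as reported, were lower with normexp and in the deposited values blocked by slide. None of the lower genes turned higher in both. Slc39a4, the zinc importer of the apical membrane, was 7.58 ± 0.44 (SD, n = 7) in NPD and 6.72 ± 0.45 (SD, n = 7) in HPD rats, a difference of -0.86 and all 7 HPD rats were below the mean of the NPD group (limma adjusted p = 0.417). Slc30a1, the zinc exporter that is itself a target of the Mtf1 protein, was 2.04 ± 0.20 and 2.62 ± 0.27 (SD, n = 7 each), a difference of 0.58 and all 7 HPD rats were above the mean of the NPD group (limma adjusted p = 0.417). Slc30a1 was called, as higher, with normexp (limma adjusted p = 0.0893) and in the deposited values blocked by slide (limma adjusted p = 0.0636). Slc39a2, an importer that was dim here, had a difference of -1.16 with a standard error of 0.49 (limma adjusted p = 0.418), the largest of the list as reported, and was well above background on 12 arrays. It was -0.36 with normexp and -0.46 in the deposited values blocked by slide, in both of which Slc39a4 had the larger difference (-1.06 in the second). Slc39a4 was called, as lower, with quantile normalization, cyclic loess, normexp, the replicate block and the deposited table without and with slide as a block (limma adjusted p from 0.0181 to 0.0941). Slc39a7, a zinc transporter of the secretory pathway, was called as lower with normexp and in the deposited values blocked by slide (limma adjusted p = 0.0897 and 0.0522), and Slc30a2 and Slc30a8, both not well above background on any array, as higher with normexp.

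**Figure D5:**
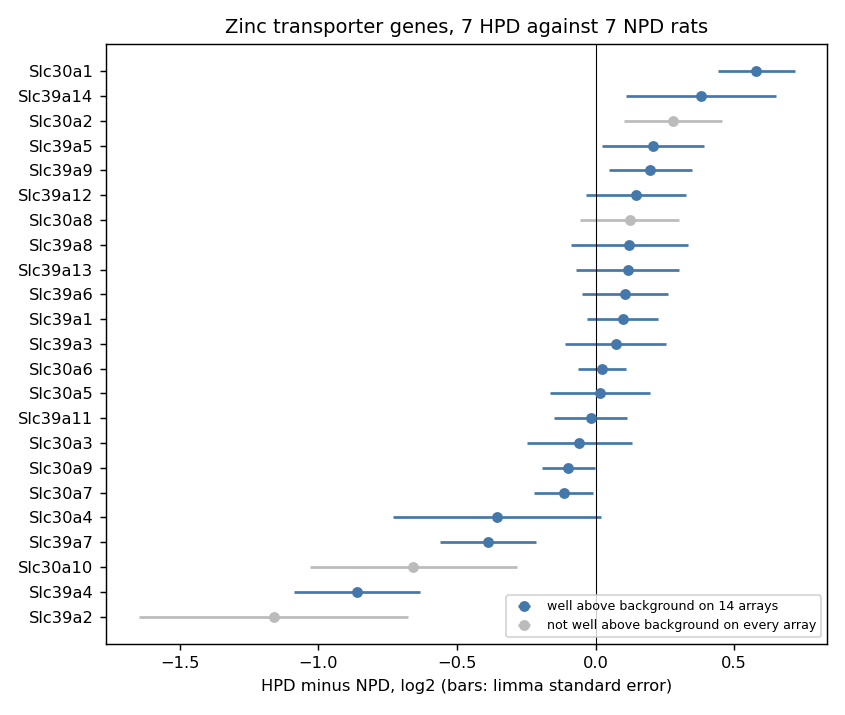
HPD minus NPD difference (x axis, log2, with the limma standard error) of 23 zinc transporter genes, by their brightest probe, ordered by size. Slc30a1 stands at 0.58 and Slc39a4 at -0.86, and grey points mark genes not well above background on every array.

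No relation of a transporter with the metallothioneins passed the test. Mt1a with Slc30a1 gave an r of 0.62 in NPD (exact permutation p = 0.129, adjusted p = 0.379) and 0.69 in HPD rats (exact permutation p = 0.0845, adjusted p = 0.379), and 0.64 within diet and slide (exact permutation p = 0.0282, adjusted p = 0.150). Mt1a with Slc39a4 gave -0.47 in NPD and 0.58 in HPD rats, and -0.45 within diet and slide (exact permutation p = 0.189, adjusted p = 0.336). Tsc22d3, a gene that glucocorticoids raise, gave an r of -0.70 with Mt1a and -0.76 with Mt2A in HPD rats (exact permutation p = 0.0865 and 0.0456, adjusted p = 0.379 and 0.365), and of -0.07 and -0.14 within diet and slide.

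The other lists gave 0 calls each as reported, while Ndrg1 and Ccs were called as lower with normexp (limma adjusted p = 0.0897 and 0.0893) and in the deposited values blocked by slide (limma adjusted p = 0.0463 and 0.0806). Among 8 reported targets of Mtf1, Slc30a1 included, 4 were higher and 4 lower, with Ndrg1, a stress-response gene, at -0.88 (standard error 0.33, limma adjusted p = 0.417). Of these targets 5 were well above background on all arrays, while Slc30a2 was so on 0 arrays and Pgf on 2. Pgf counts among the lower genes, at -0.25, but was 0.09 with normexp. Of 10 copper-handling genes 7 were higher, and the largest differences were those of the copper exporter gene Atp7b (0.28, limma adjusted p = 0.455) and of Ccs, the copper chaperone of superoxide dismutase (-0.24, limma adjusted p = 0.441). Of 9 heavy-metal and heat-shock genes 6 were lower, with Hmox1, the heme oxygenase gene, at -0.46 (limma adjusted p = 0.418) and Gclm well above background on 1 array. Of 9 glucocorticoid-responsive genes 4 were higher and 4 lower by more than 0.001, Dusp1 at -0.63 (limma adjusted p = 0.558) and Tsc22d3 at -0.18 (limma adjusted p = 0.729), and Zbtb16 was not well above background on any array. Of 9 genes of the IL-6 and STAT3 response 5 were lower, Icam1 at -0.45 (limma adjusted p = 0.429), and Il6r was not well above background on any array. Of 8 zinc-binding epithelial proteins 5 were higher, with Alpi at 0.17 (limma adjusted p = 0.515) and Car4 at 0.17 (limma adjusted p = 0.686).

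No flanking gene was called between the diets, where 0.056% of all probes were. At that share no call is the usual result for so short a list. Of the genes flanking the metallothioneins on chromosome 19 of GRCr8, from Nup93 at 38.0 kb on one side and Bbs2 at 43.7 kb on the other out to Herpud1 at 208 kb, 7 were measured, a list drawn up after the values were seen. Their differences ran from -0.32 for Bbs2 to 0.20 for Herpud1, with 4 higher, 3 lower, 0 called by limma and 0 at an unadjusted p under 0.05 (11.4% of all probes).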

How the data were processed

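Total RNA of isolated colonocytes was labelled with Cy3 and read on one-colour Agilent arrays of 62976 spots. The authors deposited 1 scanner file per array from Agilent Feature Extraction 10.7.3.1 (per the submitters' processing notes), whose background-subtracted intensity values are not normalized, and a further file of 26414 rows with log2 values centred by array and averaged per gene name. The authors had removed 1 outlying array from each group. Control spots and 5539 outlier-marked spot readings were left out here. Intensity was log2-transformed and centred on each array's median, and spots of a probe were averaged without a filter on signal. R 4.3.3, the data.table package (1.17.8), limma 3.58.1 (lmFit and eBayes with a single diet term, p-values adjusted over 30367 probes by Benjamini-Hochberg, q-value below 0.1), Python 3.11.15, NumPy 2.4.6 and SciPy 1.17.1 were used. Covariation was tested by exact permutation of 7 rats within a diet. Promoters were RefSeq GRCr8 sequences.

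The members and lists were chosen with earlier results of these data known. All member probes are named, together with Slc39a4, Slc30a1, Slc39a10 (no probe of that name) and Tsc22d3, any listed gene that was called in the fit as reported, the 2 genes with the largest difference in each list, and the 5 genes most like Mt1a, Mt2A and Mtf1. A listed gene was read by its brightest probe. Alternatives were the mean and median pixel signal, the 75th percentile, quantile, cyclic loess, normexp (offset 50), well-above-background probes only, slide or replicate number as a block, the deposited log2 values, and each array left out in turn. The fit and the permutation tests were checked on simulated data. Each rat is a sample of its own, and 7 arrays per diet set the precision.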

Additional observations from a re-analysis of the deposited data

Results flagged for a closer look

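In the 7 HPD rats, replicate 7 stood apart for Mt3, with a value of 2.04 that lay 0.809 above the next rat in a range of 1.06. The same rat was the lowest of its group for Mtf1, at 0.01635, with a gap of 0.43 in a range of 0.63. These were 2 of 12 groups of 7 rats examined by Dixon's test, in which chance flags about 1 group in 20. Both spots of Mt3 on this array read alike (214.2 and 224.5), and its median signal was the lowest of the 14 arrays.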

How the results depend on the processing

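Over the settings run, the diet differences of Mt1a, Mt2A (both probes), Mt3 and Mt4 kept their direction, and none moved by more than the SD of rats within a diet. That limit is wider than the standard error of a difference. With normexp, Mt3 and Mt4 moved by more than their standard errors of 0.27 and 0.19. Mtf1 turned to 0.0123 without HPD replicate 7, and ran from -0.10 to 0.01 with arrays left out. With 1 array left out, Mt2A lay between 2.60 and 2.89, its second probe between 2.10 and 2.42, Mt1a between 1.55 and 1.80, Mt4 between 0.98 and 1.19 and Mt3 between 0.70 and 1.03. Mt3 was 0.50 with normexp, 0.54 in the deposited values blocked by slide and 0.60 with the mean pixel signal. The 17 probes called became 5142 with normexp (63.7% of them higher), 27 with slide as a block, 2767 when the deposited values were blocked by slide (37.9% higher, chosen after seeing the data), and from 9 to 151 with arrays left out. They were 9 without NPD replicate 4 or 6, 10 without HPD replicate 4 or 5, 11 without NPD replicate 2, 28 without HPD replicate 6 and 151 without HPD replicate 1 (65 higher, 86 lower), and the cause was not tested. Listed genes called went from 0 to 1 with quantile normalization, cyclic loess, the replicate block and the deposited table, 7 with normexp (3 higher, 4 lower) and 5 when those values were blocked by slide (1 higher, 4 lower), and stayed at 0 with any array left out. The replicate block gave 8 calls, 3 of them member probes. No label ties same-numbered rats. Their deviations correlated above 0.1 in 6 of 7 pairs (highest 0.39) but at -0.09 for number 4, and 5 of 14 arrays matched their own number best, so the numbers were not taken as pairs. Without 2 rats, r of Mt1a with Mt2A was 0.82 in NPD, 0.84 in HPD and 0.86 within diet and slide, and that of Mt1a with Mtf1 within diet and slide was -0.70, farther from 0 than with all rats. None passed with these fewer rats, which says nothing on whether the relations are weaker. Mt1a with Mtf1 was -0.29 with quantile normalization and did not pass. The slide effect turned to -0.0283 for Mt1a and -0.0284 for Mt2A with quantile normalization, and that of Mt4 missed the threshold at 0.29 with quantile normalization and 0.23 with normexp. The median difference over all probes, 0.11 as reported, was 0.01 with quantile normalization and 0.0007 with cyclic loess. No member value is a bound, since all 6 probes passed the scanner software's test against background on every array. Mt3 and Mtf1 were dim, with signals from 66.4 to 219.3 and from 54.1 to 172.8.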
